A study of Homo sapiens and Mus musculus with 28 samples.

Results

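The tumours described here grew from DLD-1 cells whose GATA6 gene had been disrupted with CRISPR/Cas9. DLD-1 is a human colorectal adenocarcinoma line. The members were all libraries whose titles name a mouse xenograft, 5 of KO tumours and 5 of control tumours, 10 of the 28 libraries in the series. KO xenografts came from GATA6-knockout DLD-1 cells and control xenografts from control DLD-1 cells that the labels give as WT. Per the labels, 1000000 cells were placed in the flank of athymic nude mice aged 5 to 6 weeks, with 10 mice per condition. Nude mice lack most T cells but keep other immune cells, vessels and stroma. The labels do not say whether the KO cells were 1 clone or a pool, when the tumours were taken, or whether each library is a separate mouse, so p-values measure the spread between these libraries. For reference, 3 KO and 3 WT cultures of the same line, grown without a host, were set beside the tumours. The other 12 libraries of the series, from a degron-tagged clone, were not used here.

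GATA6 belongs to a family of transcription factors that bind DNA at GATA sites and keep endoderm-derived epithelia in their tissue identity. In the intestine it is known for sustaining crypt stem cells, in which LGR5, a receptor for R-spondins that raises WNT signalling, is the best-known marker. Intestinal epithelium is otherwise recognised by simple keratins, villin and mucins, whereas stratified epithelia such as skin and bladder lining carry other keratins, involucrin or uroplakins.

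The measurement was poly-A RNA sequencing, quantified as estimated counts per human gene, and levels are given as CPM, counts divided by the TMM-scaled library size. Total counts were between 14569850 and 26545459 in KO xenografts and between 20418444 and 36500654 in control xenografts. The first principal component held 68.5% of the variance and separated the groups, and no library stood apart from its group along it. The labels give the organism as mouse, but the identifiers are human and the epithelial markers were abundant: EPCAM averaged 974 ± 62.5 CPM in KO xenografts and 849 ± 60.1 CPM in control xenografts (SD, n = 5 each), and CDH1, E-cadherin, averaged 668 ± 66.4 CPM in KO xenografts and 589.6 ± 10.9 CPM in control xenografts. The EPCAM and CDH1 groups overlapped, and their small differences did not pass the test when some single libraries were left out. The simple keratins KRT8 (6287 against 3455 CPM in KO against control) and KRT18 (3646 against 2721 CPM) were also abundant.

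Transcripts of GATA6 itself were lower but not absent. GATA6 had 42.9, 34.9, 29.6, 38.8 and 29 CPM in the 5 KO xenografts, against 77.2, 80.2, 66.5, 67.3 and 74.9 CPM in the 5 control xenografts. The groups did not overlap (log2 fold change -1.06 ± 0.10 (SE), adjusted p = 6.26e-07, edgeR quasi-likelihood F test with Benjamini-Hochberg adjustment, as for all adjusted p-values below). Cas9 edits need not remove the RNA, so this level checks the labels only in part. The gene lies on chromosome 18 from 22169443 to 22202528 in GRCh38, and other annotated genes overlap it on the opposite strand.

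Reads of mouse origin were looked for through human genes that mark host cells, because no mouse gene values were used here. Signal in these genes was low, but counts were made per human gene. Mouse reads that failed to align to human sequence would not be seen. These values therefore do not measure how much host material the tumours held. Haemoglobin genes HBA1 and HBB, the lymphocyte gene CD3D, and PDGFRA had 0 counts in all 10 libraries. PTPRC, the pan-leukocyte gene, had 1 count over the KO libraries and 0 over the controls, and PECAM1, of endothelium, had 4 and 0. Over 10 host lists, the summed level was at most 77.2 CPM in any library. The 18-gene fibroblast and matrix list summed to between 28.1 and 44.0 CPM in KO xenografts and between 14.2 and 23.1 CPM in control xenografts, with 5 members above 1 CPM and 8 at or under 0.1 CPM. In the cultures, which have no host, the same list summed to between 8.26 and 9.39 CPM in KO and between 3.62 and 4.45 CPM in WT. The 14-gene endothelial list gave 12.4 to 17.3 CPM in KO and 8.11 to 9.52 CPM in control xenografts, and 28.5 to 31.1 CPM in KO and 13.1 to 14.7 CPM in WT cultures. The 10-gene mural list gave 52.5 to 77.2 CPM in KO and 25.3 to 33.2 CPM in control xenografts, and 68.6 to 73.3 CPM in KO and 25.7 to 27.5 CPM in WT cultures. Macrophage genes gave 3.11 to 9.79 CPM in KO and 5.86 to 10.5 CPM in control xenografts, which overlapped, and 26.1 to 27.9 CPM in KO and 5.65 to 6.75 CPM in WT cultures. DLD-1 cells without a host held these 3 lists at levels similar to or above those of KO xenografts when knocked out, and more of each in KO than in WT, so the sums are not specific to host cells. Neutrophil genes gave 5.52 to 17.3 CPM in KO and 2.76 to 4.47 CPM in control xenografts, and 4.79 to 14.2 CPM in KO and 7.76 to 12.1 CPM in WT cultures. Skeletal muscle genes gave 5.16 to 22.9 CPM in KO and 11.4 to 15.6 CPM in control xenografts. In cultures the skeletal muscle sums were lower, 1.47 to 2.39 CPM in KO and 2.09 to 2.77 CPM in WT. Erythroid, adipocyte and nerve lists stayed at or below 1.35 CPM in both groups. A set of 58 genes that the cultures lacked, under 0.1 CPM in every culture and at least 1 CPM on average in control xenografts, took between 0.0324% and 0.0445% of counts in KO xenografts and between 0.0268% and 0.0294% in control xenografts. The set was chosen through the control xenografts and holds epithelial genes such as CDX1, so it is not specific to host cells either.

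**Figure D1:**
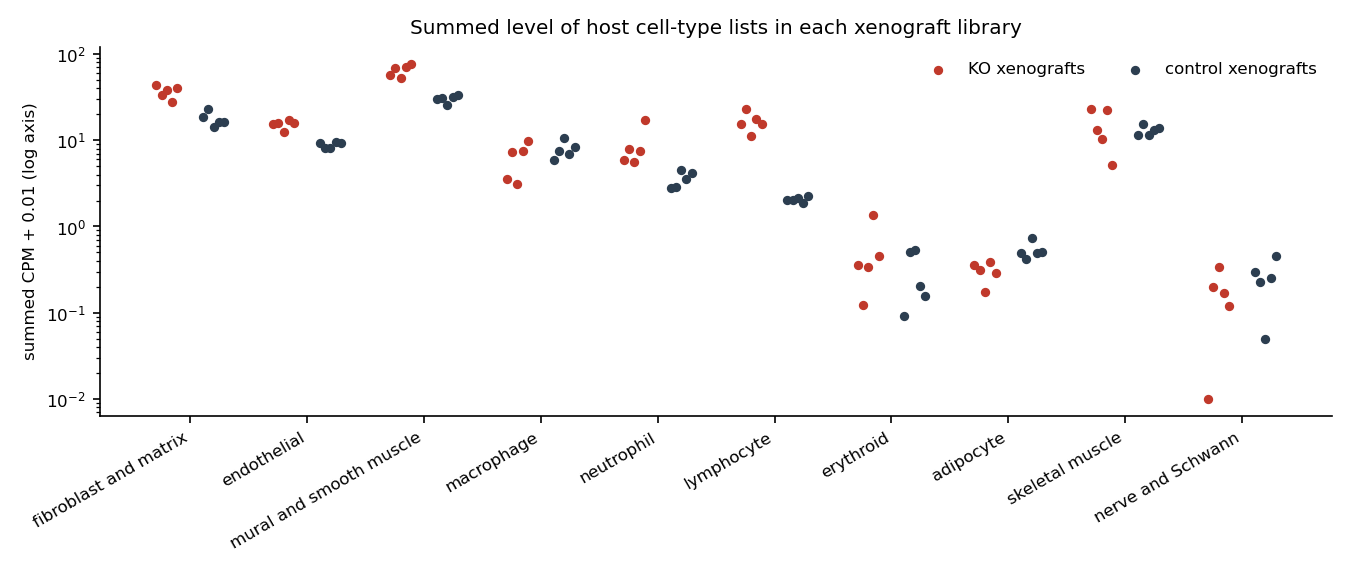
Summed CPM of 10 host cell-type lists, plus 0.01, on a log axis, with 1 point per library, KO xenografts left of control xenografts. The fibroblast, endothelial, mural, neutrophil and lymphocyte sums are higher, and the adipocyte sum lower, in all KO libraries than in any control library, and no sum exceeds 77.2 CPM.

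Among single host-list genes, COL1A1 had 18.7, 12.5, 17.6, 7.1 and 20.8 CPM in KO xenografts, against 6.58, 9.43, 2.02, 4.03 and 2.25 CPM in control xenografts, and the groups overlapped. COL6A1, of collagen VI, averaged 8.57 ± 1.51 CPM in KO xenografts and 2.23 ± 0.948 CPM in control xenografts, without overlap, and in cultures 5.21 CPM in KO and 0.819 CPM in WT. PDGFRB, the mural-cell receptor, went the other way, with 0.375 ± 0.137 CPM in KO xenografts and 3.42 ± 0.442 CPM in control xenografts. The lymphocyte sum, 11.1 to 22.9 CPM in KO and 1.87 to 2.25 CPM in control xenografts, rested mostly on CD4 and GZMB. CD4 had 7.74, 12.6, 7.25, 8.54 and 8.37 CPM in KO libraries, while the controls held 1 count in all, a ratio of 1170 with a counting interval from 210.0 to 46300.0. GZMB, granzyme B, averaged 4.56 ± 1.44 CPM in KO xenografts and 0.367 ± 0.372 CPM in control xenografts. In cultures, the lymphocyte list summed to between 1.47 and 1.96 CPM in KO and between 0.38 and 0.828 CPM in WT. There GZMB averaged 0.614 CPM in KO and 0.0377 CPM in WT, and CD4 0.056 CPM in KO and 0.0 CPM in WT. CD3D and CD3G had no counts in any of the 10 xenograft libraries, and the part of host cells in the xenograft values was not tested otherwise.

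Many genes differed between KO and control xenografts. Of 14996 genes, 8413 passed adjusted p under 0.05, or 56.1%, with 4199 higher (28%) and 4214 lower (28.1%) in KO xenografts. By a log2 of 1 or more, 1151 were higher (7.68%) and 717 lower (4.78%). The median log2 fold change over all genes tested was -0.01. Groups did not overlap for 6135 genes (40.9%). Among the 2462 genes tested that had under 1 CPM in both culture groups, 506 were higher and 226 lower by a log2 of 1 or more.

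2 covariates drawn from these measures, neither of them specific to host cells, lowered this count. With the share of counts in the 58 genes as a covariate (the share covariate), 3344 genes passed, and with the summed fibroblast and endothelial lists (the sum covariate, chosen after seeing the data), 962 did. Neither covariate overlapped between the groups (the summed lists were at 45.4 to 59.4 CPM in KO and 22.3 to 31.2 CPM in control xenografts), so what moves with it cannot be told apart from the knockout. The list counts below come from the fit without a covariate and are to be read against 28% higher and 28.1% lower over all genes tested. The counts with each covariate follow them in brackets, in the same order of direction. Named genes that lost their call with a covariate are listed in the section on processing. Mitochondrially encoded genes took between 2.44% and 4.14% of counts in KO and between 1.26% and 2.15% in control xenografts, and 11 of 13 such genes tested were higher and 0 lower (1 and 0 with the share covariate, 0 and 0 with the sum covariate), for example MT-ND5, a subunit of respiratory complex I (log2 fold change 1.35 ± 0.21 (SE), adjusted p = 3.07e-04). The part of this difference in the results below was not tested.

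LGR5 was nearly silent in KO xenografts. LGR5 had 0.265, 0.15, 0.109, 0.103 and 0.0585 CPM in KO xenografts, against 62.5, 61.4, 60.8, 62.8 and 74.9 CPM in control xenografts, and log2 fold change -8.84 ± 0.16 (SE), adjusted p = 5.97e-15. CLDN2, a claudin that forms cation- and water-permeable pores in tight junctions, had 0.132, 0.601, 0.273, 0.257 and 0.468 CPM in KO xenografts, against 109, 108, 95.3, 109 and 99.7 CPM in control xenografts, and log2 fold change -8.11 ± 0.15 (SE), adjusted p = 5.97e-15. For both genes every KO library lay below every control library by a wide margin.

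INHBA, which encodes the subunit of activin A, went the other way. It had 22.7, 20.8, 18.8, 20.9 and 19.9 CPM in KO xenografts, against 0.207, 0.22, 0.202, 0.24 and 0.098 CPM in control xenografts, and log2 fold change 6.67 ± 0.16 (SE), adjusted p = 8.39e-14. EPB41L3, a membrane-skeleton scaffold of the protein 4.1 family, had 71.4, 83.4, 77, 72.7 and 76.3 CPM in KO xenografts, against 3.19, 3.27, 4.45, 3.6 and 3.67 CPM in control xenografts, and log2 fold change 4.39 ± 0.09 (SE), adjusted p = 2.71e-14. Neither gene's groups overlapped. All 4 markers passed the test with either covariate: with the sum covariate the log2 fold changes were -8.80 for LGR5, -8.43 for CLDN2, 6.43 for INHBA and 4.89 for EPB41L3. In GRCh38, LGR5 lies on chromosome 12 from 71439770 to 71586310, CLDN2 on X from 106900164 to 106930861, INHBA on 7 from 41667168 to 41705834 and EPB41L3 on 18 from 5392381 to 5630700. Other annotated genes overlap each of them on the opposite strand.

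**Figure D2:**
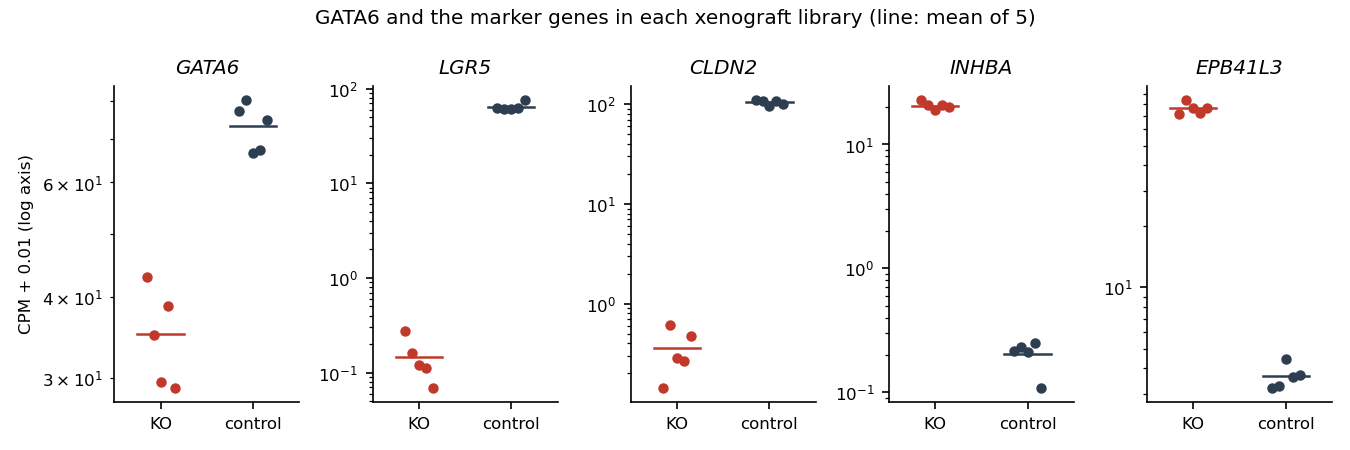
CPM plus 0.01 on a log axis for GATA6 and 4 marker genes, 1 point per library and a line at the mean of 5, KO xenografts left of control xenografts. LGR5 and CLDN2 lie far lower and INHBA and EPB41L3 far higher in KO libraries, while GATA6 differs less.

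Promoters were searched because the gene of a GATA factor was disrupted. RefSeq windows on GRCh38.p14, from 250 bases before to 50 after an annotated start, were searched for the letters AGATAA on both strands, and 10.3% of all 35116 windows held them. CLDN2 has 2 windows, INHBA 1 and EPB41L3 4, while LGR5 has none among those searched. The letters were in the INHBA window and in 1 of the EPB41L3 windows, and in neither CLDN2 window. Among the 12 largest falls described below, restricted to genes seen in cultures, 10 genes had 16 windows in all and 3 windows held them (18.8%), those of KLHL4, ABCB1 and CXCL5. Among the 12 largest rises, 9 genes had 9 windows and 2 held them (22.2%), those of INHBA and KRT38. These shares rest on few windows and were not tested against the share over all windows. A match is a description of letters and not of binding. Only AGATAA was searched, so other forms of a GATA site were not counted. The CLDN2 window that starts at 106918110, for example, holds tgataag near its beginning. The windows of CLDN2, INHBA, KLHL4 and CXCL5 follow 5′ to 3′ on the gene's strand, with the match in capitals.
CLDN2, chrX:106899914-106900213, plus strand: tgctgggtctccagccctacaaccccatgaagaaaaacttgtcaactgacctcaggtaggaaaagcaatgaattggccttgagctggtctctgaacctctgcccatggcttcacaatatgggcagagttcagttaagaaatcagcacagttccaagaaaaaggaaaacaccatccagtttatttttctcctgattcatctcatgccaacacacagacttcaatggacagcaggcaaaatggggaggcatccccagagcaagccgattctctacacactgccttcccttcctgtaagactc
CLDN2, chrX:106918110-106918409, plus strand: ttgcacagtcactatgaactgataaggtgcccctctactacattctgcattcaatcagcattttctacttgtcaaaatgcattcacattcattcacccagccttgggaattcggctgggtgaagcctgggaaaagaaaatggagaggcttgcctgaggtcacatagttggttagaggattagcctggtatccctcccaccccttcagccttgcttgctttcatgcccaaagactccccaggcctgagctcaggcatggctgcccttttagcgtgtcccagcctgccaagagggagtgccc
INHBA, chr7:41703041-41703340, minus strand: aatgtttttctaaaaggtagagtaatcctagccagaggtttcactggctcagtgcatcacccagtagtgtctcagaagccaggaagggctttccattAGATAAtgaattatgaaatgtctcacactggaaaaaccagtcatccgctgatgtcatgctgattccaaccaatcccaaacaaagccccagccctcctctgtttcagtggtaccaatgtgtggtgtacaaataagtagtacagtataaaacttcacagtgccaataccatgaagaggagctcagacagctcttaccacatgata
KLHL4, chrX:87517552-87517851, plus strand: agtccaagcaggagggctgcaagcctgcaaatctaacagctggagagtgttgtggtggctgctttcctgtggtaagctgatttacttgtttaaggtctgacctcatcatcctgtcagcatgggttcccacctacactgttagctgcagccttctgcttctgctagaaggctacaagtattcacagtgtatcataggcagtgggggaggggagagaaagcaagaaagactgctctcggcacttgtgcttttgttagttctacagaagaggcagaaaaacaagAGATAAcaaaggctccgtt
CXCL5, chr4:73998628-73998927, minus strand: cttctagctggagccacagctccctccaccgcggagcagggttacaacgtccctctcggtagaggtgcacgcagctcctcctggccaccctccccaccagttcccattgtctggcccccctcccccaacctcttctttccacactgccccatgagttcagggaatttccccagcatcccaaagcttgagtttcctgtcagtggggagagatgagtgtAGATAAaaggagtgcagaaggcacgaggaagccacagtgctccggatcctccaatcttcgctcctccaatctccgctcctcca

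Of 18 intestinal stem cell genes tested, 10 were higher and 6 lower, with a median log2 fold change of 0.23 (2 and 5 with the share covariate, 2 and 3 with the sum covariate). Beside LGR5, PROM1, the surface glycoprotein CD133, fell (1.11 against 61.6 CPM in KO against control; log2 fold change -5.78 ± 0.18 (SE), adjusted p = 1.59e-11). SMOC2, a secreted matrix protein of crypt stem cells, fell by 2.96 on the log2 scale. EPHB2, an ephrin receptor that positions crypt cells, averaged 55.1 ± 10.3 CPM in KO xenografts and 137 ± 8.9 CPM in control xenografts, and CDCA7, a MYC-responsive gene, 27.7 ± 3.14 CPM in KO xenografts and 88.2 ± 4.85 CPM in control xenografts. The groups did not overlap for these 4 genes. LRIG1, a brake on ERBB receptors that also marks stem cells, rose (35.2 against 8.17 CPM; log2 fold change 2.11 ± 0.41 (SE), adjusted p = 0.00183), as did MEX3A, an RNA-binding protein (23.1 against 10.1 CPM).

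Of 17 WNT feedback genes and targets tested, 7 were higher and 6 lower (median 0.14; 4 and 5 with the share covariate, 3 and 3 with the sum covariate). LEF1, a nuclear partner of beta-catenin, rose to 244 CPM in KO xenografts, against 73.9 CPM in control xenografts (log2 fold change 1.73 ± 0.09 (SE), adjusted p = 6.19e-10). APCDD1, a membrane WNT antagonist, rose (666 against 43.8 CPM; log2 fold change 3.93 ± 0.30 (SE), adjusted p = 3.55e-06). MYC, the growth-driving transcription factor, fell (68.2 against 253 CPM; log2 fold change -1.89 ± 0.09 (SE), adjusted p = 3.11e-10), and PROX1, a homeobox factor of colorectal tumours, fell by 3.07 on the log2 scale. AXIN2, the most widely used WNT feedback gene, had 699 ± 66.2 CPM in KO xenografts and 623 ± 17.2 CPM in control xenografts and did not pass the test (adjusted p = 0.0552), although it did with DESeq2's size factors and with total-count scaling. DLD-1 carries a truncated APC, so its WNT pathway is active without ligand.

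Of 19 gut transcription factors tested, 11 were lower and 6 higher (median -0.32; 3 and 4 with the share covariate, 1 and 2 with the sum covariate), so the lower count did not exceed the higher one with either covariate. The higher ones, also with either covariate, included GATA2 and the BMP target ID1, which are not particular to gut. CDX1, a caudal homeobox factor of intestinal identity, had 1 count over the KO libraries and 263 over the controls, 201-fold lower in KO with a counting interval from 35.7 to 7960.0. Its relative CDX2 averaged 184 ± 25.7 CPM in KO xenografts and 239.7 ± 26.5 CPM in control xenografts, and HNF4A, a nuclear receptor of enterocytes, 59.3 ± 4.98 CPM in KO xenografts and 73.2 ± 3.78 CPM in control xenografts, both small differences. HNF4G fell by 2.19 and ISX, a regulator of carotenoid uptake, by 1.60 on the log2 scale. GATA2 rose (39.6 against 11.8 CPM; log2 fold change 1.75 ± 0.14 (SE), adjusted p = 1.89e-07) and so did GATA3 (2.37 against 0.606 CPM), both members of the same family as GATA6.

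Of 11 markers of the absorptive colonocyte tested, 4 were higher and 5 lower (median -0.23; 2 and 4 with the share covariate, 1 and 3 with the sum covariate). VIL1, villin, which bundles actin in microvilli, had 3.77, 4.02, 3.71, 5.76 and 5.74 CPM in KO xenografts, against 72.9, 81.5, 94.9, 73.3 and 95.7 CPM in control xenografts, without overlap (log2 fold change -4.19 ± 0.14 (SE), adjusted p = 2.59e-11). MUC13, a membrane mucin, fell (18.8 against 188 CPM; log2 fold change -3.32 ± 0.10 (SE), adjusted p = 2.93e-12), as did DPP4, a brush-border peptidase (1.01 against 9.26 CPM), and CDH17, the liver-intestine cadherin (95 against 224 CPM). KRT20, the keratin of mature colonocytes, rose (78.2 against 22 CPM; log2 fold change 1.83 ± 0.16 (SE), adjusted p = 1.34e-06). Of 9 secretory-lineage genes tested, 3 were higher and 5 lower (1 and 2 with the share covariate, 2 and 2 with the sum covariate). AGR2, a disulfide isomerase needed for mucin, averaged 1161 ± 85.3 CPM in KO xenografts and 432 ± 20.2 CPM in control xenografts, and REG4, of enteroendocrine and goblet cells, 0.933 ± 0.391 CPM in KO xenografts and 9.01 ± 2.11 CPM in control xenografts.

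Of the 15 tested members of the squamous and stratified keratin list, 12 were higher and 0 lower, with a median log2 fold change of 2.69 (11 and 0 with the share covariate, 3 and 0 with the sum covariate). With no filter on low counts, 15 of 20 were higher and 0 lower (median 2.63). The list also holds the simple keratins KRT7, KRT8, KRT18 and KRT19, which were all higher (median 0.69) and made up nearly all of its summed level. Without these 4, a split made after the values were seen, 11 of the other 16 members passed the count filter. Of these 11, 8 were higher and 0 lower (median 3.68). Scarce members can pass the filter only through the group where they are high. Counts for this split without the filter or with a covariate are not given here. The sum was 135 to 333 CPM in KO xenografts and 59.7 to 114 CPM in control xenografts, most of the control level being that of KRT80. KRT6A, a keratin of activated and wounded skin, had 12.8, 24.4, 26.8, 21.9 and 78.4 CPM in KO xenografts, against 0.414, 2.83, 0.81, 0.672 and 0.196 CPM in control xenografts (log2 fold change 4.87 ± 0.74 (SE), adjusted p = 5.12e-04). The highest KO library, replicate 5, lay far above the other 4, but the groups did not overlap. KRT16 (15 against 0.45 CPM), KRT13 (3.93 against 0.062 CPM), KRT5 (4.39 against 0.305 CPM) and KRT4 (11.7 against 0.157 CPM) were higher in KO xenografts by log2 fold changes of 5.03, 5.99, 3.68 and 6.22. KRT19 rose (2800.0 against 1018 CPM; log2 fold change 1.46 ± 0.12 (SE), adjusted p = 2.07e-07). IVL, involucrin of the cornified envelope, averaged 10.1 ± 7.46 CPM in KO xenografts and 0.0712 ± 0.0315 CPM in control xenografts. Keratin genes are close paralogs, so reads may have been split among them.

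**Figure D3:**
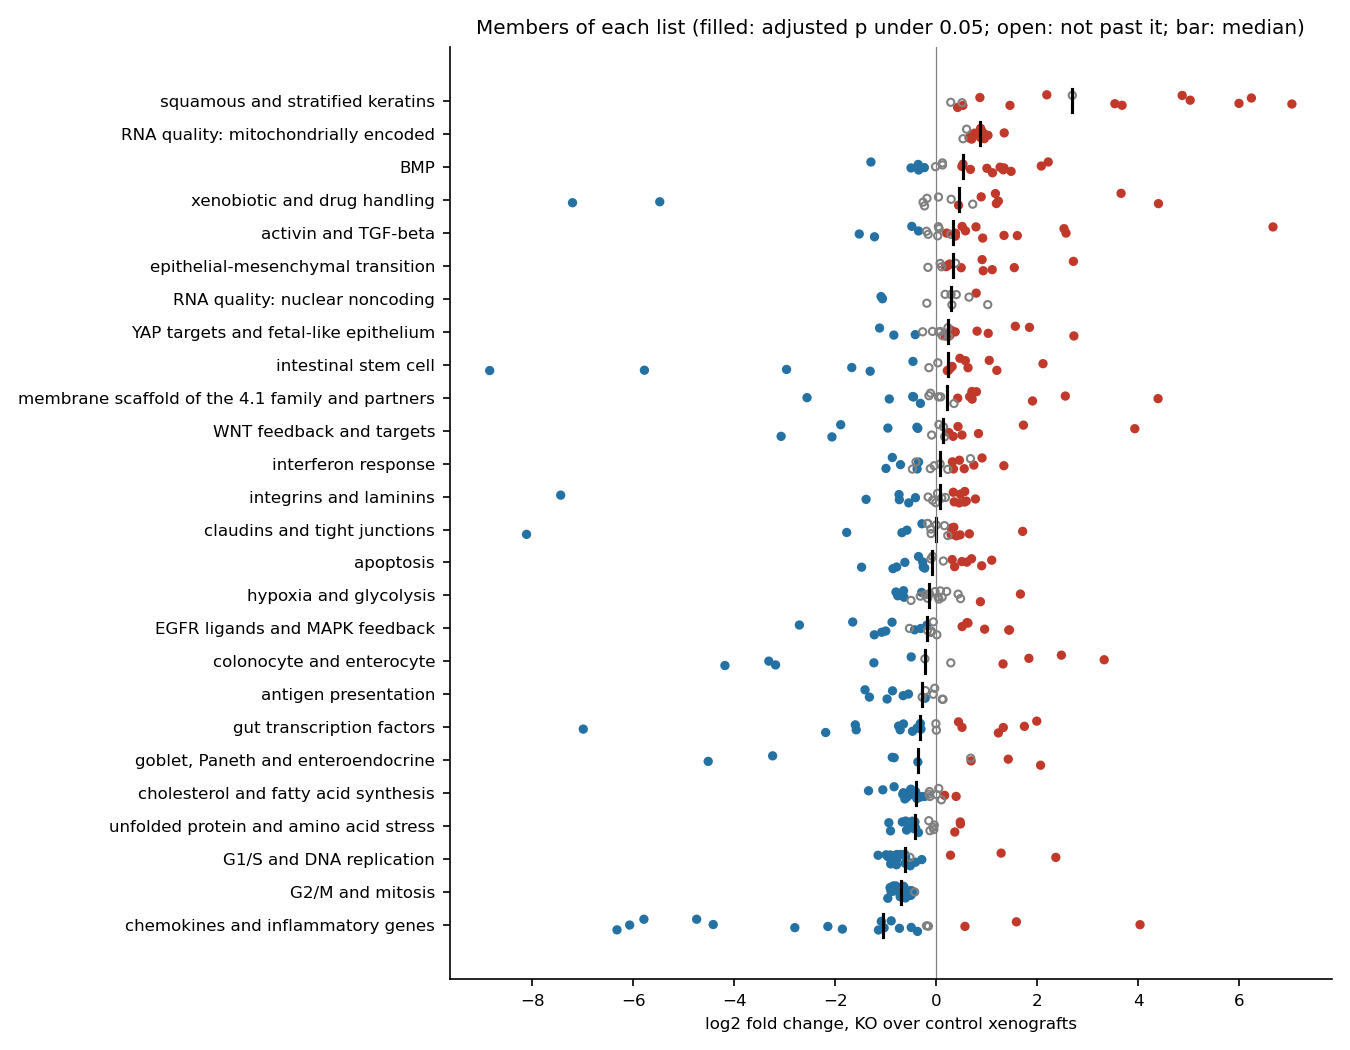
Log2 fold change of KO over control xenografts for tested members of 26 lists, ordered by median; filled points passed adjusted p under 0.05 and bars are medians. The squamous and stratified keratin list, simple keratins included, lies highest (median 2.69), and chemokines lie lowest (median -1.06).

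Of 19 claudins and tight-junction genes tested, 7 were higher and 5 lower, shares near those over all genes (3 and 4 with the share covariate, 1 and 2 with the sum covariate). Beside CLDN2, CLDN1, a sealing claudin, fell (2.2 against 7.48 CPM; log2 fold change -1.77 ± 0.15 (SE), adjusted p = 1.11e-07). CLDN4 rose (314 against 199.7 CPM; log2 fold change 0.65), as did CGNL1, a cingulin relative at the junction (13.9 against 4.32 CPM).

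Genes of activin and TGF-beta signalling included 12 higher and 4 lower of 22 tested (median 0.33; 7 and 2 with the share covariate, 3 and 2 with the sum covariate). Among ligands, INHBB, the other activin subunit, averaged 25.1 ± 4.86 CPM in KO xenografts and 4.3 ± 0.914 CPM in control xenografts (log2 fold change 2.53 ± 0.16 (SE), adjusted p = 1.13e-08). TGFB2 rose (128 against 21.6 CPM; log2 fold change 2.57 ± 0.16 (SE), adjusted p = 8.58e-08) and TGFB1 fell (17.6 against 41.1 CPM; log2 fold change -1.22). Of the receptors, TGFBR2 (79 against 110.5 CPM) and the co-receptor TGFBR3 (20.6 against 59.5 CPM) fell. FSTL3, a secreted activin antagonist, rose (19.6 against 7.69 CPM).

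Of 19 BMP genes tested, 11 were higher and 5 lower, 8 of the higher ones by a log2 of 1 or more (median 0.53; 7 and 0 with the share covariate, 6 and 0 with the sum covariate). The ligand BMP4 averaged 1066 ± 131 CPM in KO xenografts and 493 ± 38.5 CPM in control xenografts (log2 fold change 1.11 ± 0.09 (SE), adjusted p = 5.05e-08), whereas BMP2 fell (5.57 against 13.6 CPM). The targets ID1 and ID2, inhibitors of helix-loop-helix factors, rose by log2 fold changes of 1.33 and 1.34, and ATOH8, a BMP-responsive factor, by 2.22.

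In the protein 4.1 family and its partners, 8 were higher and 5 lower of 18 tested (8 and 2 with the share covariate, 3 and 1 with the sum covariate). EPB41L2 averaged 53.9 ± 9.14 CPM in KO xenografts and 318 ± 13.8 CPM in control xenografts, opposite in direction to its paralog EPB41L3 (log2 fold change -2.56 ± 0.10 (SE), adjusted p = 3.12e-11). CADM1 and CADM4, adhesion molecules that bind 4.1 proteins, both rose (132 against 22.5 CPM and 28.9 against 7.73 CPM in KO against control; log2 fold changes 2.56 and 1.91).

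Chemokines and inflammatory genes were mostly lower. Of 20 tested, 15 fell and 3 rose, with a median log2 fold change of -1.06, the lowest of the 26 lists (7 and 1 with the share covariate, 5 and 1 with the sum covariate). CXCL5, a neutrophil attractant, had 15.5, 13.1, 24.4, 13.3 and 16.2 CPM in KO xenografts, against 890.4, 988, 1164, 817 and 693 CPM in control xenografts, without overlap (log2 fold change -5.79 ± 0.21 (SE), adjusted p = 2.24e-09). Its relatives CXCL1, CXCL2, CXCL3 and CXCL8 fell by 6.07, 4.75, 6.32 and 2.80 on the log2 scale. IL33, a nuclear alarmin cytokine, averaged 1.28 ± 0.476 CPM in KO xenografts and 27.1 ± 7.03 CPM in control xenografts. IL1B was an exception (7.24 against 0.439 CPM; log2 fold change 4.04 ± 0.41 (SE), adjusted p = 3.14e-06). The list summed to between 307 and 391 CPM in KO xenografts and between 1280.0 and 2010.0 CPM in control xenografts.

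Antigen presentation genes were lower in 7 and higher in 0 of 13 tested (median -0.28; 6 and 0 with the share covariate, 3 and 0 with the sum covariate). B2M, the light chain of MHC class I, averaged 60.7 ± 3.91 CPM in KO xenografts and 111 ± 2.94 CPM in control xenografts, PSMB9, an immunoproteasome subunit, 7.55 ± 0.377 CPM in KO xenografts and 19 ± 3.21 CPM in control xenografts, and NLRC5, the class I transactivator, 7.34 ± 1.02 CPM in KO xenografts and 19.4 ± 1.61 CPM in control xenografts. None of the 3 overlapped between groups. Of 19 interferon-response genes, 7 were higher and 5 lower, also near the shares over all genes (2 and 2 with the share covariate, 1 and 0 with the sum covariate).

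Of 21 EGFR ligands and MAPK feedback genes tested, 6 were higher and 9 lower (median -0.17; 5 and 3 with the share covariate, 2 and 3 with the sum covariate). The ligands AREG, amphiregulin (12.3 against 38.6 CPM), and EREG, epiregulin (20.1 against 131 CPM), fell by 1.66 and 2.71 on the log2 scale. DUSP4, a phosphatase of MAP kinases (24.1 against 8.83 CPM), and PHLDA1 (611 against 315 CPM) rose.

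Proliferation genes were modestly and almost uniformly lower. Of 25 G1/S and replication genes, 21 were lower and 3 higher (median -0.62; 2 and 2 with the share covariate, 1 and 1 with the sum covariate), and of 25 G2/M genes 24 were lower and 0 higher (median -0.70; 0 and 0 with the share covariate, 0 and 0 with the sum covariate), none by a log2 of 1 or more. MCM2, of the replicative helicase, averaged 94.9 ± 19 CPM in KO xenografts and 174 ± 8.39 CPM in control xenografts, PCNA, the sliding clamp, 168 ± 33.8 CPM in KO xenografts and 294 ± 12.2 CPM in control xenografts, and CDT1, the licensing factor, 23.7 ± 3.86 CPM in KO xenografts and 52.6 ± 1.65 CPM in control xenografts. MKI67, the Ki-67 gene, averaged 375 ± 91.8 CPM in KO xenografts and 608 ± 118 CPM in control xenografts, and its groups overlapped. TOP2A, topoisomerase II alpha, and NUSAP1, a spindle protein, fell by 0.60 and 0.96 on the log2 scale. CDKN1A, the p21 inhibitor of cyclin-dependent kinases, rose (70.2 against 13.7 CPM; log2 fold change 2.37 ± 0.25 (SE), adjusted p = 2.44e-05).

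**Figure D4:**
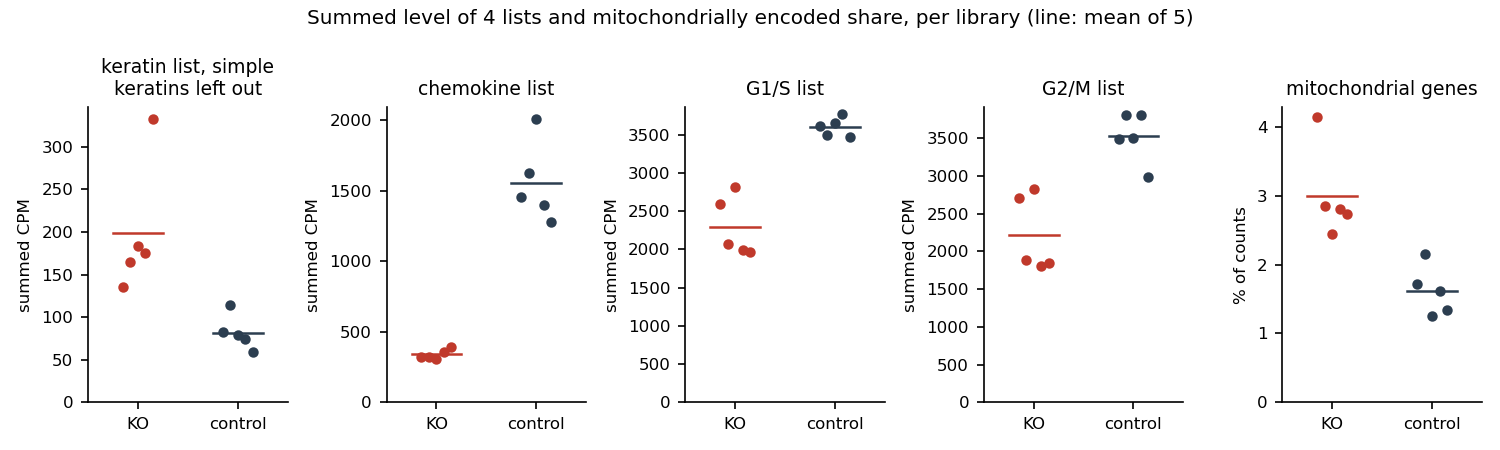
Summed CPM of 4 lists and percent of counts in mitochondrially encoded genes, 1 point per library and a line at the mean of 5, KO xenografts left of control xenografts. The keratin panel leaves out KRT7, KRT8, KRT18 and KRT19. Keratin and mitochondrial values are higher and chemokine, G1/S and G2/M sums lower in all KO libraries than in any control library.

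Cholesterol and fatty acid synthesis genes were lower in 16 and higher in 2 of 24 tested (median -0.40; 2 and 2 with the share covariate, 1 and 0 with the sum covariate). HMGCS1, an early enzyme of cholesterol synthesis, averaged 99.8 ± 14.2 CPM in KO xenografts and 253 ± 29 CPM in control xenografts, ELOVL6 fell by 1.06 and FASN, fatty acid synthase, by 0.62 on the log2 scale. Unfolded protein and amino acid stress genes were lower in 12 and higher in 3 of 20 (3 and 0 with the share covariate, 2 and 0 with the sum covariate). Among the lower ones were HSPA5, the chaperone BiP (1236 against 1858 CPM), which did not pass with either covariate, and SLC7A5, a leucine transporter (183 against 351 CPM). Of 21 hypoxia and glycolysis genes 14 did not pass the test, 2 were higher and 5 lower (0 and 0 with the share covariate, 0 and 0 with the sum covariate). Without single libraries the lower count was between 3 and 9, with 9 without KO replicate 5 and 3 without KO replicate 1, 2 or 4 or control replicate 1 or 3. ENO1, enolase, fell by 0.65 and ADM, adrenomedullin, rose by 1.67 on the log2 scale.

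Among 20 integrins and laminins, 8 were higher and 6 lower (7 and 3 with the share covariate, 0 and 2 with the sum covariate). ITGA9, an integrin alpha chain, averaged 0.134 ± 0.0955 CPM in KO xenografts and 22.6 ± 3.09 CPM in control xenografts, the largest change on the list, while ITGA2, of the collagen receptor, fell by 1.39. Of 14 genes of the epithelial-mesenchymal transition 10 were higher and 0 lower (median 0.32; 3 and 0 with the share covariate, 1 and 0 with the sum covariate). The higher genes included a repressor of the transition, so the counts give no direction for the transition itself. Also among the higher genes were VIM, vimentin (4.27 against 0.642 CPM), and FN1, fibronectin (17.3 against 5.88 CPM). FN1 did not pass with the sum covariate. Of 20 YAP targets and fetal-like genes 10 were higher and 3 lower (6 and 1 with the share covariate, 1 and 1 with the sum covariate), with ANXA1 at 524 against 177 CPM and NT5E, the ectonucleotidase CD73, at 364 against 208 CPM in KO against control xenografts.

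Of 15 xenobiotic genes tested, 7 were higher and 2 lower (5 and 3 with the share covariate, 2 and 2 with the sum covariate). ABCB1, the P-glycoprotein drug pump, fell (0.612 ± 0.482 CPM in KO xenografts and 96.3 ± 5.79 CPM in control xenografts), and so did UGT1A6, a glucuronosyltransferase (0.0442 against 2.1 CPM), whose exons overlap other UGT1A genes. ALDH1A1, a retinaldehyde dehydrogenase, rose (378 against 18.1 CPM; log2 fold change 4.40 ± 0.33 (SE), adjusted p = 3.41e-06), as did AHR, the aryl hydrocarbon receptor (473 against 210.0 CPM). Of 18 apoptosis genes, 7 were higher and 8 lower (2 and 2 with the share covariate, 1 and 0 with the sum covariate), with BCL2L1 and BMF higher by 0.90 and 1.10 and BIRC3 lower by a log2 fold change of -1.48.

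The 12 largest falls among genes with a mean log2 CPM of at least 1 over the 10 xenografts, groups that did not overlap and at least 1 CPM in KO or WT cultures were, beside LGR5, CLDN2, ITGA9, ABCB1, CXCL5 and PROM1, those of KLHL4, ARMCX4, PRSS2, CHRM3, LAMA2 and PRSS1. KLHL4, a kelch-repeat protein, had 0 counts in all 5 KO xenografts and 4271 over the controls (32.1, 26.8, 35.6, 39.5 and 40.1 CPM), so it was at least 1090-fold lower, taking 3 counts over the KO group as the floor. ARMCX4 had 1 count over the KO libraries and 554 over the controls, and CHRM3, a muscarinic receptor, 2 and 625, ratios of 423 and 239 with counting intervals from 75.6 to 16700.0 and from 65.8 to 1970.0. LAMA2, a laminin chain, averaged 0.068 ± 0.076 CPM in KO xenografts and 11.5 ± 1.38 CPM in control xenografts. The trypsinogens PRSS1 (0.111 against 6.4 CPM) and PRSS2 (0.323 against 77.3 CPM) also fell, but are near-identical copies whose reads could be shared.

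The 12 largest rises under the same conditions, which leave out scarcer genes such as KRT13, were, beside INHBA, IVL, KRT4, KRT16 and KRT6A, those of KRT38, ADGRF1, IGFL1, UPK2, GPC1-AS1, LY6G6C and CAVIN2. KRT38, a hair keratin, had 453 counts over the KO libraries and 3 over the controls, a ratio of 198 with a counting interval from 67.3 to 963. ADGRF1, an adhesion receptor, averaged 5.83 ± 1.58 CPM in KO xenografts and 0.0561 ± 0.0482 CPM in control xenografts, IGFL1, of the insulin growth factor-like family, 15.1 ± 9.42 CPM in KO xenografts and 0.201 ± 0.165 CPM in control xenografts, and UPK2, a uroplakin of bladder epithelium, 6.82 ± 4.26 CPM in KO xenografts and 0.11 ± 0.0649 CPM in control xenografts. LY6G6C averaged 14.3 ± 6.09 CPM in KO xenografts and 0.647 ± 0.241 CPM in control xenografts and CAVIN2, a caveolar coat protein, 9.31 ± 2.0 CPM in KO xenografts and 0.474 ± 0.107 CPM in control xenografts. GPC1-AS1 lies opposite GPC1, and the strand setting of the counting is not given, so its value (13.3 against 0.296 CPM) may hold reads of both.

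Among genes under 1 CPM in both culture groups, with the same minimum level in xenografts, which leaves out CDX1, the 5 largest falls were those of ANGPT1, PIGR, LGALS4, CXCL3 and CXCL1. ANGPT1, angiopoietin-1, had 2 counts over the KO libraries and 676 over the controls, a ratio of 258 with a counting interval from 71.2 to 2140.0. PIGR, which carries immunoglobulin A across gut epithelium, averaged 0.108 ± 0.0646 CPM in KO xenografts and 15.9 ± 9.46 CPM in control xenografts, and LGALS4, galectin-4 of intestinal epithelium, 0.123 ± 0.0466 CPM in KO xenografts and 11 ± 3.53 CPM in control xenografts. The 5 largest rises were those of KRT31, CALML3, CD4, MIA and KRT23. KRT31, a hair keratin, had 1019 counts over the KO libraries and 0 over the controls, so it was at least 445-fold higher. CALML3, a calmodulin-like protein of stratified epithelia, averaged 50.1 ± 24.7 CPM in KO xenografts and 0.0483 ± 0.035 CPM in control xenografts, KRT23 9.29 ± 1.08 CPM in KO xenografts and 0.11 ± 0.0721 CPM in control xenografts, and MIA 5.67 ± 1.29 CPM in KO xenografts and 0.0371 ± 0.0624 CPM in control xenografts.

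The 5 genes whose log2 CPM tracked LGR5 most closely within groups, over 10 libraries, were MRPL57, ABHD11, UBE2CP5, XRCC3 and USB1, with Pearson r between 0.928 and 0.959 out of 12424 genes compared. This is a description without a test, and LGR5 was close to 0 in the KO libraries.

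The knockout effect in tumours was set beside that in cultures, which share no library with it. In the joint fit of 16 libraries, 7139 of 16021 genes (44.6%) differed between KO and WT cultures. Of 14635 genes tested in both comparisons, 4159 passed in both in the same direction, 50.2% of the calls in xenografts and 60.3% of those in cultures, and 611 passed in opposite directions. The difference between the effects was itself tested, and 4328 of 16021 genes (27%) passed, 2024 of them with a more positive and 2304 with a more negative effect in xenografts. With total counts in place of TMM scaling the split was 1507 and 3130.

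LGR5 fell in both settings, with culture means of 0.0281 CPM in KO and 24.6 CPM in WT, and the effects did not differ by the test (difference in log2 fold change 0.65, adjusted p = 0.578). For CLDN2 the effect was larger in xenografts by -1.50 (adjusted p = 6.19e-04). INHBA and EPB41L3 rose more in xenografts, by differences of 2.02 (adjusted p = 0.0243) and 3.04 (adjusted p = 3.87e-04). EPB41L3 had 0.48 CPM in KO and 0.189 CPM in WT cultures, far below its level in KO xenografts. CADM1 had opposite directions, a log2 fold change of 2.56 in xenografts and -2.72 in cultures (difference 5.28, adjusted p = 2.89e-16). LEF1 did so too, with 1.73 in xenografts and -1.27 in cultures, as did B2M, with -0.87 and 0.84, and NLRC5, with -1.41 and 1.71. MUC13 and HMGCS1 fell in xenografts by 3.32 and 1.34 on the log2 scale, and their culture values, -0.27 and 0.00, did not pass the test.

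**Figure D5:**
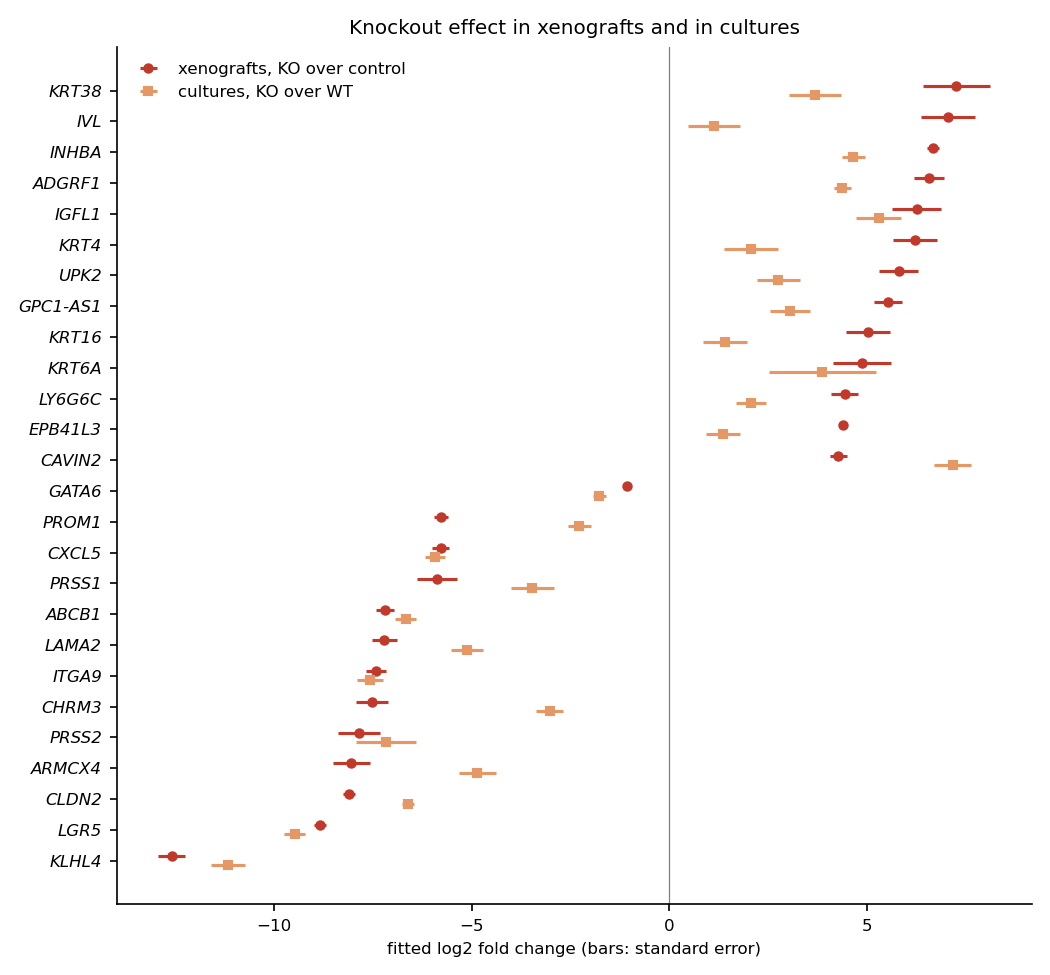
Fitted log2 fold change with its standard error for GATA6, the 4 markers and the 12 largest rises and falls among genes seen in cultures with a mean log2 CPM of at least 1 in xenografts; circles are KO over control xenografts and squares KO over WT cultures. Every gene shown has the same sign in both, and values of genes at 0 counts depend on the prior count.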

How the data were processed

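Per the labels, libraries kept strand information and were poly-A selected. Trim Galore (0.6.10), STAR, RSEM and hg38 are listed per the submitters' processing notes. Which releases of STAR, RSEM and the annotation were used, how strand was set in counting and how mouse reads were treated is not given in the sources used here. For each library the authors deposited expected counts and TPM per human gene. Xenograft files list 62700 genes and culture files 60649, joined on 60463 shared Ensembl identifiers. Symbols came from a reference table (42343 genes named), coordinates from GENCODE on GRCh38, a release that may differ from the authors'.

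The main tests used edgeR 4.0.16 under R 4.3.3 on the rounded expected counts (filterByExpr, TMM, robust quasi-likelihood F tests, Benjamini-Hochberg threshold 0.05). SE is the log2 fold change divided by the root of F. The 10 xenografts were fitted alone, and the cultures and the difference of effects in a joint fit of 16 libraries. In simulated counts for the xenografts, 196 of 14808 genes were changed 2-fold and 82.7% of these were recovered. A far larger share, 56.1%, was called in the data, so this rate need not hold for them. Alternatives used DESeq2 1.42.0 and limma 3.58.1, with limma on log2 of the deposited TPM plus 0.1 or 1. Intervals are exact at 95% and cover counting error only.

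Named genes were GATA6 and 4 markers, the 12 highest and 12 lowest log2 fold changes with non-overlapping groups among genes with a mean log2 CPM of at least 1 in xenografts and 1 CPM or more in cultures, 5 each way among other genes, and list members with the smallest p, up to 4 per list. A few genes that these rules or lists hold are not reported here. Further list members were named after their values were seen. The markers, the 36 lists and these rules were chosen with earlier results of these data known.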

Additional observations from a re-analysis of the deposited data

Results flagged for a closer look

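Among the 133 genes named with values, 84 had a knockout effect that differed between xenografts and cultures by the interaction test of the joint fit (adjusted p under 0.05), against 27% of all genes tested. Many of the 133 were chosen through their xenograft values, which also enter this test. The choice itself raises the share, so it is no result about these genes. Values are the xenograft log2 fold change minus the culture one. Some of the genes with the largest differences were near 0 in both culture groups, so their culture fold changes are poorly measured. Examples, in KO and WT cultures, were KRT23 (0.087 and 0.0856 CPM), PIGR (0.0899 and 0.085 CPM), CXCL1 (0.128 and 0.0753 CPM) and CXCL2 (0.0711 and 0.0547 CPM). The difference was largest on the positive side, in the order given, for KRT23 (6.30), IVL (5.90), CADM1 (5.28), KRT5 (4.70), KRT4 (4.15), KRT13 (3.76), KRT16 (3.61), KRT38 (3.57), EPB41L3 (3.04), UPK2 (3.04), LEF1 (3.0) and GPC1-AS1 (2.49). Next came APCDD1 (2.41), LY6G6C (2.37), ADGRF1 (2.19), PTCH1 (2.16), MT-ND5 (2.05), S100A4 (2.04), INHBA (2.02), TGFB2 (2.01), IL33 (1.98), GATA2 (1.87), FN1 (1.79) and MEX3A (1.49). After these stood AXIN2 (1.38), AHR (1.28), BMP4 (1.23), BMF (1.14), INHBB (1.09), CDKN1A (1.07), AGR2 (1.05), PHLDA1 (0.92), CADM4 (0.85), ANXA1 (0.82), KRT19 (0.75) and GATA6 (0.71). Smaller positive differences were those of KRT8 (0.59), CDX2 (0.54), HNF4A (0.49), BCL2L1 (0.48), CDH1 (0.47), CDCA7 (0.43) and CLDN4 (0.41). On the negative side the order began with PIGR (-7.11), CXCL1 (-6.85), CXCL2 (-5.11), CXCL3 (-4.72), CHRM3 (-4.47), PROM1 (-3.50), ARMCX4 (-3.17), NLRC5 (-3.12), CLDN1 (-3.09), MUC13 (-3.04), CAVIN2 (-2.89) and CXCL8 (-2.56). It went on with DPP4 (-2.45), PDGFRB (-2.42), PRSS1 (-2.41), EREG (-2.39), PROX1 (-1.98), PSMB9 (-1.85), VIL1 (-1.71), B2M (-1.71), NT5E (-1.61), CLDN2 (-1.50), HNF4G (-1.48) and BIRC3 (-1.46). Then followed HMGCS1 (-1.34), KRT20 (-1.21), EPB41L2 (-1.14), ISX (-1.13), ITGA2 (-1.10), TGFBR2 (-1.06), FASN (-1.0), HSPA5 (-0.91), EPHB2 (-0.88), DUSP4 (-0.81), AREG (-0.79) and TOP2A (-0.78). Smaller negative differences were those of TGFBR3 (-0.78), CDT1 (-0.70), NUSAP1 (-0.66), CDH17 (-0.65) and SLC7A5 (-0.53).

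Single libraries lay far from the others of their group (Dixon's criterion at 95%) in 31 of 266 gene and group pairs. For normally distributed values the criterion flags about 1 in 20. CPM of genes near 0 are not so distributed, so the share here cannot be judged against that rate. Some flagged values rest on 1 count over the whole group, as for CDX1 and ARMCX4 in KO and CD4 in control xenografts. In KO xenografts the highest library was the distant one for CDX1 (0.0376 CPM, replicate 2), KRT6A (78.4 CPM, replicate 5), KRT16 (32.8 CPM, replicate 5), CALML3 (93.2 CPM, replicate 2), CXCL5 (24.4 CPM, replicate 3), ARMCX4 (0.0585 CPM, replicate 5), IGFL1 (31.4 CPM, replicate 5), ANGPT1 (0.109 CPM, replicate 3), CD4 (12.6 CPM, replicate 2), S100A9 (13.2 CPM, replicate 5) and S100A4 (258 CPM, replicate 5). The lowest KO library was so for GATA3 (1.53 CPM, replicate 3). In control xenografts the highest library stood off for LGR5 (74.9 CPM, replicate 5), CDCA7 (96.8 CPM, replicate 5), KRT6A (2.83 CPM, replicate 2), KRT16 (0.972 CPM, replicate 3), IL1B (0.972 CPM, replicate 3), ALDH1A1 (33 CPM, replicate 5), PRSS1 (12.6 CPM, replicate 2), PRSS2 (148 CPM, replicate 2), PIGR (32 CPM, replicate 5), MIA (0.144 CPM, replicate 4), CD4 (0.0405 CPM, replicate 3), GZMB (1.01 CPM, replicate 3), COL6A1 (3.87 CPM, replicate 5) and H2BC21 (5.56 CPM, replicate 4). The lowest control library did for INHBA (0.098 CPM, replicate 5), CLDN1 (6.43 CPM, replicate 4), EREG (72.8 CPM, replicate 5), TOP2A (433 CPM, replicate 5) and AHR (179 CPM, replicate 5).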

How the results depend on the processing

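Of 8413 genes called between KO and control xenografts, counts under other scalings, filters and tests were between 7440 and 8991, within 1.5 times. The covariates were the exception, with 3344 genes for the share of genes the cultures lacked and 962 for the fibroblast and endothelial sum, which was added after seeing the data; the cause was not tested. Under that sum EPCAM, COL1A1 and MT-ND5 changed sign, to -0.086, -2.29 and -0.23, none past the threshold, and 48 others of the 133 genes named lost their call, against 19 with the other covariate. The 19, lost with both, were CDH1, CDX2, LRIG1, HNF4A, GATA3, TGFBR2, BMP2, MCM2, PCNA, MKI67, TOP2A, NUSAP1, FASN, ENO1, ADM, HSPA5, BMF, COL1A1 and MT-ND5. Lost only with the sum covariate, beside EPCAM, were KRT8, KRT18, CDH17, SMOC2, EPHB2, HNF4G, ISX, KRT6A, KRT16, KRT13, KRT5, KRT4 and KRT31. So were KRT38, IVL, CLDN4, TGFB1, FSTL3, CXCL8, PSMB9, EREG, ELOVL6, FN1, NT5E, BIRC3, IGFL1, UPK2, PIGR, COL6A1, PDGFRB and S100A9. On log2(TPM + 0.1), 38.9% of calls were higher, against 49.9%. Leaving out 1 library gave 7579 to 8496 calls for xenografts, 6233 to 7442 for cultures and 3627 to 4611 for the difference of effects. Apart from AXIN2, EPCAM and CDH1, no gene named changed its call when 1 library was left out. Mean shares of counts in genes the cultures lacked became 0.0191% in KO and 0.0145% in control xenografts with 0 counts required in every culture, and 0.0557% in KO xenografts with the minimum set over all 10 xenografts. Replicate numbers did not pair the libraries (correlations from -0.0939 to 0.04); a replicate block gave 8045, 6631 and 3848 calls for xenografts, cultures and the difference.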

Other observations

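Further gene families, chosen after their values were seen and so without a test of the family, moved in KO xenografts. Of 24 keratin genes that passed the count filter 20 were higher and 0 lower, against 28% higher over all genes (19 and 0 with the share covariate, 6 and 0 with the sum covariate). Scarce genes such as KRT31, at 0 counts in controls, can pass the filter only through the group where they are high. With no filter, 30 of 47 keratins were higher and 1 lower, with a median log2 fold change of 2.68 against 3.61. All 4 uroplakins tested were higher, among them UPK1A (22.3 against 0.854 CPM in KO against control; log2 fold change 4.75) and UPK3A (4.92 against 0.365 CPM), which form plaques on bladder epithelium. Of 28 clustered histone genes that passed the count filter 23 were higher and 0 lower, with a median log2 fold change of 1.94 (16 and 0 with the share covariate, 9 and 0 with the sum covariate). Without the filter 24 of 59 were higher and 2 lower, with a median of 0.92. H1-2, a linker histone, was at 165 against 31.9 CPM and H2BC21 at 45.6 against 4.28 CPM. Most such transcripts normally end without a poly-A tail, these libraries were poly-A selected, and some copies share reads. Of 14 S100 and calmodulin-like genes 12 were higher and 0 lower (12 and 0 of 18 without the filter). Examples were S100A4 (195 against 69.1 CPM) and the neutrophil-list member S100A9 (4.66 against 0.177 CPM). Counts with the covariates are not given here for the uroplakins or for the S100 and calmodulin-like genes. UPK2 and S100A9 lost their call with the sum covariate, while UPK1A, UPK3A and S100A4 kept theirs. PTCH1, the hedgehog receptor and target, rose (291 against 72 CPM; log2 fold change 2.02), while HHIP, a hedgehog antagonist, fell (2.97 against 7.83 CPM).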
